A study of Homo sapiens with 24 samples.

Results

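Transcription of hypoxia and glycolysis genes was followed across 24 PRO-seq libraries of T47D cells. The 10 genes are *ADM*, *VEGFA*, *SLC2A1*, *PGK1*, *LDHA*, *PDK1*, *CA9*, *EGLN3*, *BNIP3* and *NDRG1*, a list of well-known hypoxia-inducible genes that was matched by symbol to the 60605 genes of the count table. They were compared between collections, between clones and between treatments. All 10 had a row, and 9 of them had enough counts to be tested among 22326 genes. On hg38 with GENCODE release 44, the annotated genes were *NDRG1* (ENSG00000104419, on the minus strand of chromosome 8), *ADM* (ENSG00000148926, chr11:10305073-10307397), *VEGFA* (ENSG00000112715, chr6:43770184-43786487), *SLC2A1* (ENSG00000117394, chr1:42925353-42958893), *PGK1* (ENSG00000102144, chrX:77910739-78129295), *LDHA* (ENSG00000134333, chr11:18394560-18408425), *PDK1* (ENSG00000152256, chr2:172555373-172608669), *CA9* (ENSG00000107159, chr9:35673928-35681159), *EGLN3* (ENSG00000129521, chr14:33924227-34462774) and *BNIP3* (ENSG00000176171, chr10:131967684-131981967).

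PRO-seq (precision run-on sequencing) maps the 3′ ends of nascent RNA, so a gene's count follows its ongoing transcription and not its mature RNA. T47D is a luminal breast cancer cell line. Clones 28, 35 and 39 each carry the dTAG degron, fused with hygromycin resistance and 2xHA sequences, at the native *TRPS1* gene, and only tagged TRPS1 protein is made because the remaining copies of *TRPS1* are knocked out. The DMSO cells carry the same alleles as the treated cells, and each clone is a single line. Within each clone, 4 replicates received 0.1% DMSO or 100 nM dTAG-13, a small molecule that directs tagged protein to degradation, for 90 minutes. The replicates were treated and collected at different times of 1 day, the DMSO and dTAG-13 dishes together, and are numbered 1 to 4 here as collections. The clock times were not given, nor whether a number marks the same time in different clones.

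Cells sense oxygen through the hypoxia-inducible factors HIF-1α and HIF-2α, encoded by *HIF1A* and *EPAS1*, which pair with ARNT. When oxygen is plentiful, prolyl hydroxylases encoded by *EGLN1*, *EGLN2* and *EGLN3* mark the α subunits for destruction by the VHL ubiquitin ligase. When it is scarce, the pairs bind short DNA elements beside genes for glucose uptake, glycolysis, blood vessel growth and mitochondrial turnover, and in breast tumours this programme is a well-known accompaniment of poor perfusion.

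The core of a hypoxia response element is ACGTG or GCGTG, which reads CACGT or CACGC on the other strand. These letters were searched on both strands in RefSeq promoters of GRCh38.p14, from 250 bases before to 50 bases after a start, with overlapping matches such as CACGTG taken as 1 stretch. Sequences were found for 8 of the 10 genes. The sequences below are shown because 3 of these genes (*ADM*, *BNIP3* and *LDHA*) differed between collections in the results that follow and the other pair (*PGK1* and *SLC2A1*) did not pass that test. Capitals mark the matches, and each sequence runs 5′ to 3′ on the strand of its gene.
ADM: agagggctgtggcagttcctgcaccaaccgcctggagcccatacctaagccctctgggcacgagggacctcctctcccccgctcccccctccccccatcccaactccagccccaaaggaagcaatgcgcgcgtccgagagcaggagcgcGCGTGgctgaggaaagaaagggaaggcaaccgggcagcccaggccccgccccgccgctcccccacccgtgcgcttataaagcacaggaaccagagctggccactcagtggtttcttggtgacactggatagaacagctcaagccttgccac
BNIP3: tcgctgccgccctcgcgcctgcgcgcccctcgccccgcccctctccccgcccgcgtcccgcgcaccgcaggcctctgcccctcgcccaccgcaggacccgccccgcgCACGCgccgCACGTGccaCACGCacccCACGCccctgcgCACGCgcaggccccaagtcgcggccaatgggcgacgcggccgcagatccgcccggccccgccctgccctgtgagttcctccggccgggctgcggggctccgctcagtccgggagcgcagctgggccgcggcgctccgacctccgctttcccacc
LDHA: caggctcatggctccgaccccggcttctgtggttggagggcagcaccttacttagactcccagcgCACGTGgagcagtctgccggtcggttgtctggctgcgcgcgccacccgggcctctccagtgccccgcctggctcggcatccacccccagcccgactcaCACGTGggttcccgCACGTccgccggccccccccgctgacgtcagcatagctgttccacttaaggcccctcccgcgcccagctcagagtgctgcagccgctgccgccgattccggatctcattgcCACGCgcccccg
PGK1: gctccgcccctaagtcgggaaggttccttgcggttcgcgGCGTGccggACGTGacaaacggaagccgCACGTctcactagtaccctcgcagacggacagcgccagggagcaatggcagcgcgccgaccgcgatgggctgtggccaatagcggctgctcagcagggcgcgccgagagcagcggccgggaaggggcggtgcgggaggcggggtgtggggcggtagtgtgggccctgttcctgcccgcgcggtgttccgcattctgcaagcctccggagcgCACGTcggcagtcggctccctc
SLC2A1: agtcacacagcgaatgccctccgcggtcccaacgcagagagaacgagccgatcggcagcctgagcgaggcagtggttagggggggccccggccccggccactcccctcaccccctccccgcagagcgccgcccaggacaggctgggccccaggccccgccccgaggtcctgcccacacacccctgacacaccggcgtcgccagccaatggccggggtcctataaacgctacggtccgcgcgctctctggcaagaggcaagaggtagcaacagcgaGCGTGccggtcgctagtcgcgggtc

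The *ADM* promoter lies on the plus strand at chr11:10304823-10305122 and holds 1 stretch. *BNIP3* is on the minus strand at chr10:131981874-131982173 and holds 5 stretches, whose first bases lie from -143 to -104 relative to the start. *LDHA* at chr11:18394313-18394612 on the plus strand holds 4 stretches at this first listed start, and its other listed start holds 1. *PGK1* at chrX:78103998-78104297 on the plus strand also holds 4. *SLC2A1* at chr1:42958819-42959118 on the minus strand holds 1, located after the start. *CA9* held 1 stretch. None was found in the window of *EGLN3* or at the first listed start of *PDK1*, whose other start held 2. Of all 35116 promoters in the table, 48.4% held at least 1 stretch, 2.75% at least 4 and 0.994% at least 5. The genes that differed between collections and those that did not pass the test both include promoters with 1 and with 4 stretches. The promoter with 5 (*BNIP3*) was among the former, and the windows with none (*EGLN3* and the first start of *PDK1*) were among the latter. No sequence was found for *VEGFA* or *NDRG1*. A relation of stretches to the collections was not tested.

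Library totals ranged from 3226718 to 9575803 counts (median 5042122), and values are given as CPM, which is counts per 1000000 counts of a library after scaling by the TMM method. Median totals of the 6 libraries of collections 1 to 4 were 4271054, 4921468, 5467913.5 and 5231689.5, so collections 3 and 4 were somewhat deeper by the median. This did not hold in every clone, because the collection 3 libraries of Clone 39 were the shallowest of all (3626852 in DMSO and 3226718 in dTAG-13). The share of counts on the mitochondrial chromosome had a median of 1.99% in collection 1, 1.84% in collection 2, 1.51% in collection 3 and 1.28% in collection 4. All 9 luminal markers examined were transcribed in every library (*ESR1* at a mean of 1600 and *GATA3* at 817 CPM), with a summed level from 3950 to 6250 CPM. The 7 markers of other cell types summed to between 17.4 and 34.5 CPM, with 9 counts of the basal keratin gene *KRT5* and 22 of *KRT14* over all libraries. *TRPS1* itself was transcribed at a high level with both treatments (log2 difference 0.19, SE 0.083, adjusted p = 0.733, edgeR). The dTAG-13 library exceeded its same-numbered DMSO library in 12 of 12 pairs, and with these pairs as a block *TRPS1* was called (0.20, SE 0.026, adjusted p = 6.65e-04, edgeR). The size of this change differed between collections (adjusted p = 7.3e-09 with the block, edgeR). Transcription of the gene does not check the loss of its protein.

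Per kilobase of gene, the mean level over the 24 libraries was highest for *ADM* (10.6 CPM per kb), followed by *LDHA* (5.89), *VEGFA* (3.23), *BNIP3* (1.72) and *SLC2A1* (1.22). *PDK1* (0.366), *NDRG1* (0.343), *EGLN3* (0.318) and *PGK1* (0.309) were lower. Lengths come from GENCODE release 44, in which *PGK1* and *EGLN3* have unusually long annotations that run through other genes, so their levels per length are uncertain. *CA9*, which encodes a carbonic anhydrase that is a standard tumour hypoxia marker, was close to silent. It had 15 counts over all 24 libraries, at most 4 in any, and 13 libraries had 0, where a limit of 3 counts corresponds to 0.313 CPM in the deepest library and 0.93 CPM in the shallowest. *ARHGEF39*, which overlaps it on the opposite strand, had 4125 counts. No difference in *CA9* could be detected at this depth.

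The first comparison asked whether these genes differed between the collections of a day. *ADM*, *BNIP3*, *LDHA* and *VEGFA* were transcribed more in collections 3 and 4 than in collections 1 and 2, *ADM* by 1.58-fold and the others by 1.14-fold to 1.23-fold. *PGK1*, *SLC2A1*, *PDK1*, *EGLN3* and *NDRG1* did not pass this test. The DMSO and dTAG-13 libraries of a clone and number were summed, which gave 12 collections, and clone and number were fitted together. The split into 2 pairs of numbers was known from earlier results of these data, and earlier and later refer here to the numbers, not to known times. Of all genes tested, 40.2% differed between the 2 pairs of collections and 20.6% were higher in collections 3 and 4. With 4 of 9 tested genes called (44.4%), the hypoxia genes were called about as often as genes in general. All 4 calls were increases, where the calls over all genes split into 4608 higher and 4372 lower (6162 and 3215 when scaled by library totals alone). The median log2 difference was 0.11 over the 9 genes and 0.00080 over all genes.

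*ADM* encodes adrenomedullin, a secreted vasodilator peptide. Its 6 libraries of collection 1 ranged from 12.6 to 27.4 CPM (median 20.2), and those of collection 2 from 13.8 to 23.2 CPM (median 18.2). Those of collection 3 ranged from 22.3 to 39.2 CPM (median 31.3), and those of collection 4 from 22.1 to 35.6 CPM (median 28.7). Over the 3 clones, which sat at different levels, these ranges overlapped. Within each of the 3 clones, every library of collections 3 and 4 lay above every library of collections 1 and 2, with either treatment. Only 1.34% of all genes tested were higher without overlap in each of the 3 clones, and *ADM* was the only one of the 9 genes to be so. The log2 difference of the later from the earlier pair was 0.66 (SE 0.058, adjusted p = 7.71e-13, edgeR). It was 0.73 in the DMSO libraries alone and 0.58 in the dTAG-13 libraries alone, and between 0.63 and 0.68 without any one clone. The step lay between the pairs, because collection 2 differed from 1 by -0.16 (SE 0.090, adjusted p = 0.382) and 4 from 3 by -0.04 (SE 0.075, adjusted p = 0.938, edgeR).

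*VEGFA* encodes the growth factor that drives the sprouting of blood vessels. It had a median of 47.9 CPM (41.0 to 54.4) in collection 1 and 50.9 CPM (49.2 to 54.3) in collection 2. In collection 3 it had 54.6 CPM (51.3 to 61.3) and in collection 4 55.7 CPM (51.0 to 62.5). The increase was small against the range of the libraries, and the earlier and later libraries were fully separate in Clones 28 and 35 but not in Clone 39. How many of all genes were separate within a single clone was not counted. The log2 difference was 0.19 (SE 0.039, adjusted p = 1.15e-04, edgeR). In the dTAG-13 libraries alone it was 0.11 and did not pass (adjusted p = 0.168), while in the DMSO libraries alone it was 0.27 (adjusted p = 1.66e-04, edgeR). Whether the size differs between treatments was tested as an interaction of number and treatment, and *VEGFA* did not pass (adjusted p = 0.687, edgeR). In simulated data this test recovered 0.5% of log2 changes of 0.25, so it cannot decide the question. Those counts held no clone or collection effects and a change at a single number, so the rate is no measure of power here.

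**Figure D1:**
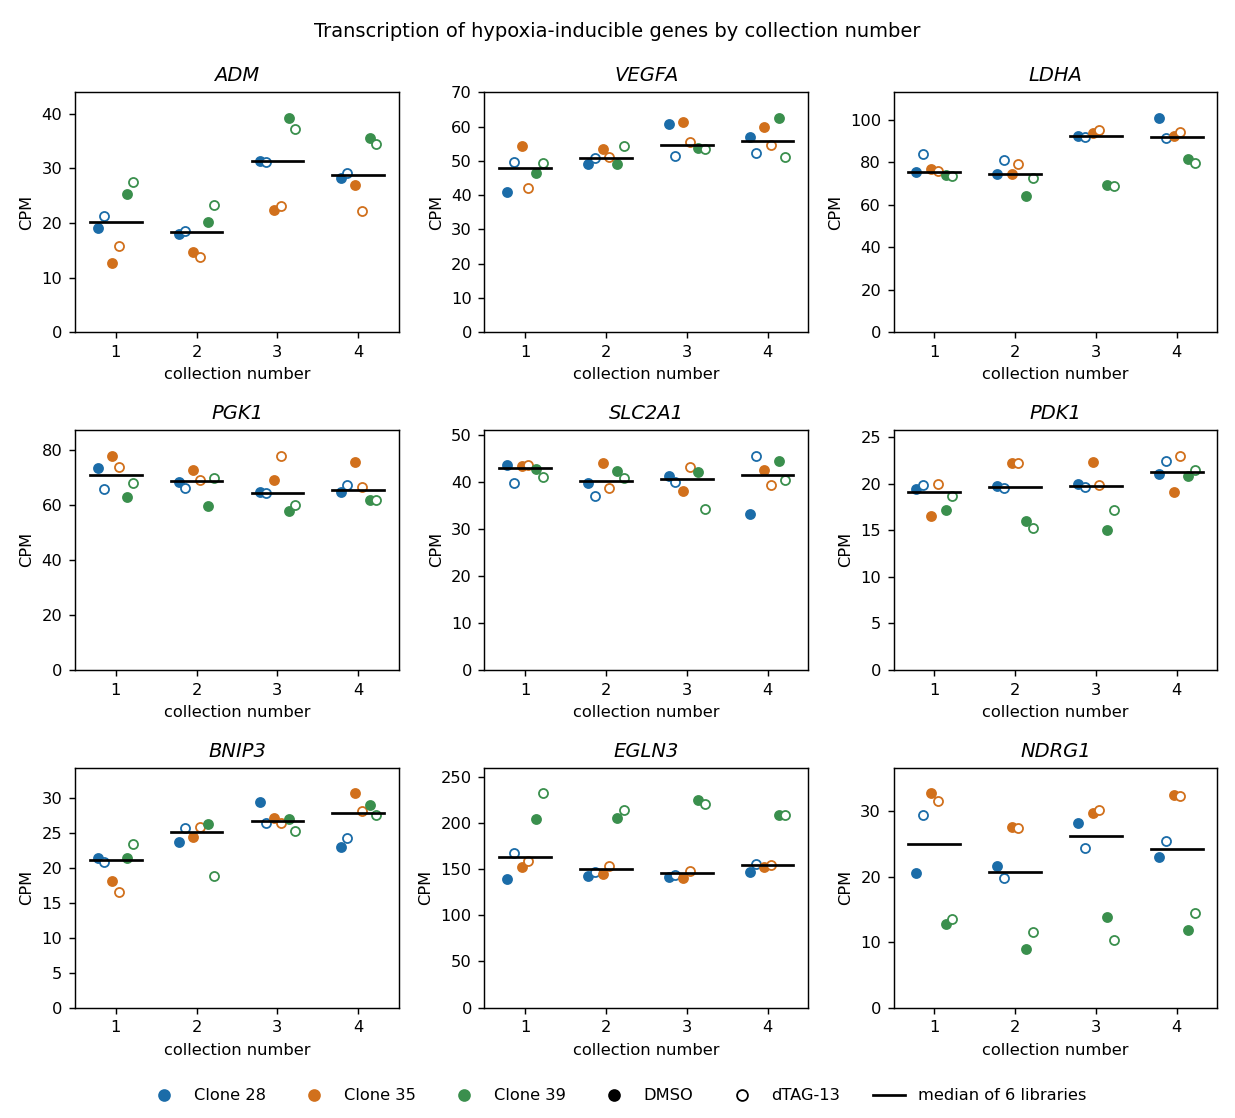
Level of each tested gene in CPM (y axis, from 0) in the 24 libraries by collection number (x axis), with colour for the clone, filled points for DMSO, open points for dTAG-13 and a bar for the median of 6 libraries. ADM is higher in collections 3 and 4 than in 1 and 2 in every clone (medians 18.2 CPM in collection 2 and 31.3 CPM in collection 3), and EGLN3 and NDRG1 separate Clone 39 from the other clones at every number.

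Among the genes of glucose uptake and glycolysis, *LDHA* differed. It encodes a subunit of lactate dehydrogenase, which turns pyruvate into lactate. Its median was 75.6 CPM in collection 1 (73.7 to 84.1) and 74.7 CPM in collection 2 (64.1 to 81.0), against 92.4 CPM in collection 3 (69.0 to 95.1) and 91.9 CPM in collection 4 (79.7 to 101). The later libraries were all higher in Clones 28 and 35, by 0.26 and 0.29 on the log2 scale, and overlapped the earlier ones in Clone 39, where the difference was 0.073. The share of all genes separate within a single clone was not counted. Over the 3 clones the log2 difference was 0.22 (SE 0.036, adjusted p = 5.76e-06, edgeR).

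*PGK1* encodes phosphoglycerate kinase, an ATP-forming enzyme of glycolysis. Its medians were 70.9, 68.7, 64.5 and 65.6 CPM in collections 1 to 4, and the later libraries lay slightly below the earlier ones on average in all 3 clones (log2 difference -0.06, SE 0.034, adjusted p = 0.215, edgeR). *SLC2A1*, which encodes the glucose transporter GLUT1, had medians of 43.1, 40.4, 40.6 and 41.6 CPM (log2 difference -0.03, SE 0.044, adjusted p = 0.633, edgeR). *PDK1*, the kinase that turns off pyruvate dehydrogenase, had medians of 19.0, 19.6, 19.7 and 21.2 CPM (log2 difference 0.09, SE 0.067, adjusted p = 0.320, edgeR). For these 3 genes the ranges of the 4 collections overlapped.

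*BNIP3* encodes a receptor for the removal of mitochondria by autophagy. It ranged from 16.5 to 23.4 CPM in collection 1 (median 21.1), from 18.8 to 26.3 CPM in collection 2 (median 25.1), from 25.3 to 29.5 CPM in collection 3 (median 26.7) and from 23.0 to 30.7 CPM in collection 4 (median 27.9). The later libraries were all higher than the earlier ones in Clone 35, but overlapped them in Clones 28 and 39. Here too, the share of all genes separate within a single clone was not counted. The later pair was higher by 0.30 on the log2 scale (SE 0.064, adjusted p = 3.19e-04, edgeR), while the step from 1 to 2, at 0.27 (SE 0.095), just missed the threshold (adjusted p = 0.102). *BNIP3* therefore had a less sharp boundary between the pairs than *ADM*.

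*EGLN3* encodes an oxygen-sensing prolyl hydroxylase that is itself induced by HIF, and *NDRG1* encodes a stress-responsive protein linked to differentiation. *EGLN3* had medians of 163, 150, 146 and 155 CPM in collections 1 to 4 (log2 difference -0.01, SE 0.028, adjusted p = 0.794, edgeR). *NDRG1* had medians of 25, 20.7, 26.2 and 24.2 CPM, and the wide range within each number came from the clones. It was lower in collection 2 than in collection 1 by a log2 difference of -0.27 (SE 0.087, adjusted p = 0.0587, edgeR), against 7.09% of all genes called in that contrast. Between collections 4 and 3, where 0.466% of all genes were called, none of the 9 genes was (edgeR; 0 also at an unadjusted p under 0.05, and 0 by DESeq2). Over the 4 numbers together, 5 of the 9 genes passed (*ADM*, *LDHA*, *VEGFA*, *BNIP3* and *NDRG1*) against 36.9% of all genes. *NDRG1* (adjusted p = 0.0314, edgeR) lost its place with DESeq2 (adjusted p = 0.391) and whenever a clone was left out (adjusted p from 0.114 to 0.188).

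The other genes of the pathway, from 3 lists without the 10 genes, were read from the same fit. Of the glycolysis genes, 12 of 21 tested passed, 11 higher and 1 lower in collections 3 and 4, and 19 of 21 had a positive log2 difference (median 0.12). *GAPDH*, the glyceraldehyde-3-phosphate dehydrogenase gene, had medians of 68.3, 69.6, 97.4 and 92.6 CPM in collections 1 to 4 and a log2 difference of 0.45 (SE 0.039, adjusted p = 7.79e-11, edgeR). *ENO1* (enolase) rose by 0.21 and *ALDOA* (aldolase) by 0.21 on the same scale. *PFKFB3*, which makes the activator of phosphofructokinase, was the gene called lower (-0.11, SE 0.021, adjusted p = 6.50e-05, edgeR). Its medians were 513, 432, 463 and 438 CPM in collections 1 to 4, so collection 1 stood above the others and there was no step between the pairs. The glycolysis list was thus called in 57.1% of its tested genes, and nearly all of those calls were increases.

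Of other HIF targets, 11 of 26 passed, 8 higher and 3 lower (median log2 difference -0.02). *P4HA2*, a collagen prolyl hydroxylase gene, was higher by 0.35 (SE 0.052, adjusted p = 6.13e-07, edgeR) and *STC2*, which encodes the secreted glycoprotein stanniocalcin 2, was lower (-0.20, SE 0.025, adjusted p = 5.24e-07, edgeR). Of the oxygen-sensing and HIF genes, 3 of 16 passed, with *VHL* higher (0.19, SE 0.045) and *ARNT2* and *CUL2* lower (-0.38, SE 0.15, and -0.10, SE 0.035). *HIF1A* (-0.06), *EPAS1* (-0.09), *ARNT* (0.06), *EGLN1* (0.02), *EGLN2* (0.08) and *HIF1AN* (0.02), which encodes the asparagine hydroxylase that blocks HIF activity, did not pass (adjusted p from 0.127 to 0.684, edgeR). Against 40.2% of all genes, the other targets were thus called in 42.3% and the oxygen-sensing and HIF genes in 18.8%. The 26 calls over the 3 lists came to 14 with DESeq2, where those over all genes came to 4776 from 8980, and to 16 without Clone 28.

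Within the earlier pair of collections, 7 of the 63 other pathway genes tested (11.1%) differed between 2 and 1, against 7.09% of all genes. *PFKFB3* was lower in 2 by a log2 difference of -0.23, *BHLHE40*, a transcriptional repressor gene, by -0.25, *PLOD2*, a collagen lysyl hydroxylase gene, by -0.21 and *KDM4B*, a histone demethylase gene, by -0.13, whereas *PFKFB4*, a relative of *PFKFB3*, was higher by 0.31 (adjusted p from 4.40e-07 to 0.0179, edgeR). Between 4 and 3, 3 of the 63 passed (4.76%, against 0.466% of all genes), *STC2* (-0.17), *P4HA1* (-0.19) and *PFKP* (0.19). These 10 calls came to 4 with DESeq2, in DMSO or dTAG-13 libraries alone and without Clone 35 or 39, to 3 without Clone 28 and to 5 without replicate 1 of Clone 28.

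**Figure D2:**
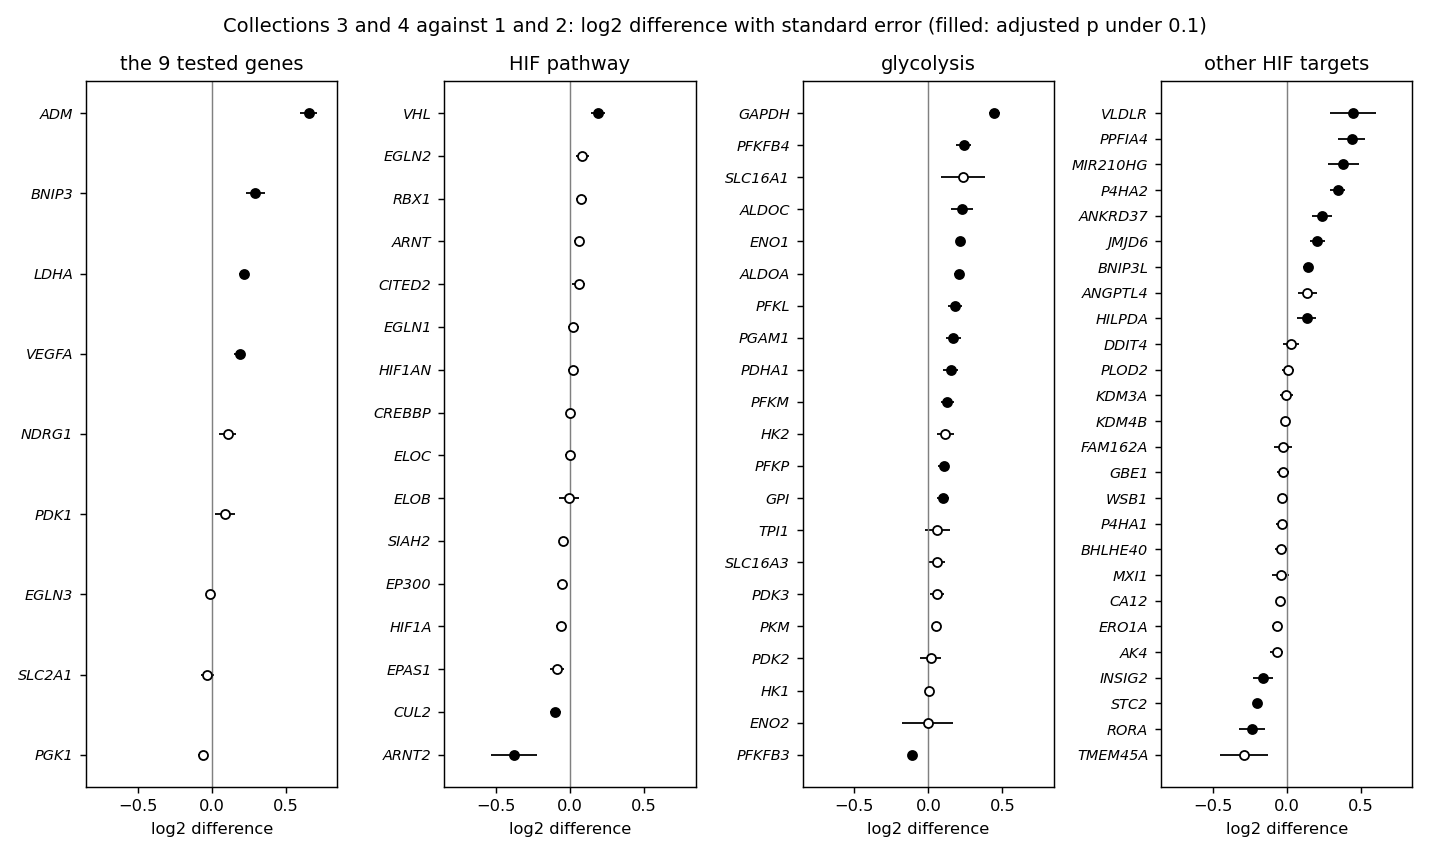
Log2 difference of collections 3 and 4 from 1 and 2 (x axis) with its standard error for the 9 tested genes and for the genes of 3 pathway lists (y axis, ordered by size within each list), from the fit over 12 collections, filled where the adjusted p is under 0.1. ADM (0.66) has the largest difference of the 9 genes, and 19 of 21 glycolysis genes lie right of 0.

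Median depth (not depth in every clone) and the mitochondrial share, given above, moved with the number as well, and so did the summed luminal markers (medians 5440, 5520, 4890 and 4670 CPM in collections 1 to 4) and *TRPS1* transcription (lower in collections 3 and 4 by a log2 difference of -0.34, SE 0.017). Their part in these differences was not tested. Time of day, time in culture and order of handling cannot be told apart here, and in bulk libraries fewer transcribing cells cannot be told apart from less transcription per cell.

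The second comparison was between the clones in DMSO. *EGLN3* was 1.47-fold higher in Clone 39 than in Clone 28 and 1.43-fold higher than in Clone 35, *NDRG1* was lower in Clone 39 by a factor of 1.98 and 2.57, and *PGK1* was 1.22-fold higher in Clone 35 than in Clone 39. These 3 of 9 genes passed the test over the 3 clones (33.3%), against 25.5% of all genes, which is a similar share. The first pair of clones differed in fewer genes (4.42% of all genes between Clones 28 and 35, and 0 of the 9, with 1 at an unadjusted p under 0.05, in edgeR) than either did from Clone 39 (23.8% and 20.6%, with 2 and 3 of the 9). With the collection number as a block, the same 3 contrasts called 2, 5 and 5 of the 9. The block also raised the calls over all genes, from 10914 to 18282 in the 3 contrasts together. The shares above are from the fit without the block and are no background for these counts.

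*EGLN3* in DMSO libraries 1 to 4 had 139, 142, 141 and 147 CPM in Clone 28, and 152, 145, 140 and 152 CPM in Clone 35. Clone 39 had 204, 205, 225 and 209 CPM. Every Clone 39 library was above every library of the other clones, as held for 5.47% of all genes, and the dTAG-13 libraries showed the same gap (209 to 232 CPM in Clone 39, at most 167 CPM elsewhere). The log2 difference of Clone 28 from Clone 39 was -0.56 (SE 0.059, adjusted p = 4.77e-07, edgeR) and that of Clone 35 from Clone 39 was -0.52 (SE 0.059, adjusted p = 1.37e-06, edgeR). The annotation of *EGLN3* spans *SPTSSA* on the same strand, whose counts came to 40.9% of those of *EGLN3*, and whether its reads were counted in both was not stated. *SPTSSA* itself differed by -0.14 between Clones 28 and 39 (SE 0.074) and did not pass (adjusted p = 0.233, edgeR).

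*NDRG1* had 20.6, 21.6, 28.2 and 23.0 CPM in DMSO libraries 1 to 4 of Clone 28, and 32.7, 27.6, 29.7 and 32.5 CPM in Clone 35. Clone 39 had 12.8, 9.01, 13.9 and 11.8 CPM. All Clone 39 libraries were below all others, which 7.37% of all genes shared. The log2 difference of Clone 28 from Clone 39 was 0.98 (SE 0.14, adjusted p = 2.44e-05, edgeR) and that of Clone 35 from Clone 39 was 1.36 (SE 0.14, adjusted p = 2.28e-07, edgeR). The log2 difference of Clone 28 from Clone 35 was -0.38 (SE 0.12) and did not pass (adjusted p = 0.123), but with the collection number as a block it passed (adjusted p = 0.00662, edgeR). Clone 39 thus combined the highest *EGLN3* with the lowest *NDRG1*, although both genes are known as HIF targets.

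*PGK1* had 73.6, 68.3, 64.8 and 64.6 CPM in Clone 28, 78.0, 72.9, 69.2 and 75.8 CPM in Clone 35, and 63.1, 59.7, 57.8 and 61.9 CPM in Clone 39. Clone 39 was the lowest and did not overlap the others, as held for 7.37% of all genes. The log2 difference of Clone 35 from Clone 39 was 0.28 (SE 0.070, adjusted p = 0.00675, edgeR), and Clone 28 lay between (0.17 above Clone 39, SE 0.071, adjusted p = 0.121, and 0.0368 with the collection number as a block, edgeR). In the dTAG-13 libraries *PGK1* did not pass (adjusted p = 0.234, edgeR). *ATP7A*, on the same strand within the annotation of *PGK1* and with 26.3% of its counts, had a log2 difference of 0.31 between Clones 35 and 39 (SE 0.14, adjusted p = 0.163, edgeR). With the block *ATP7A* was called there too (0.33, SE 0.12, adjusted p = 0.0320, edgeR), and whether reads were counted in both was not stated.

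**Figure D3:**
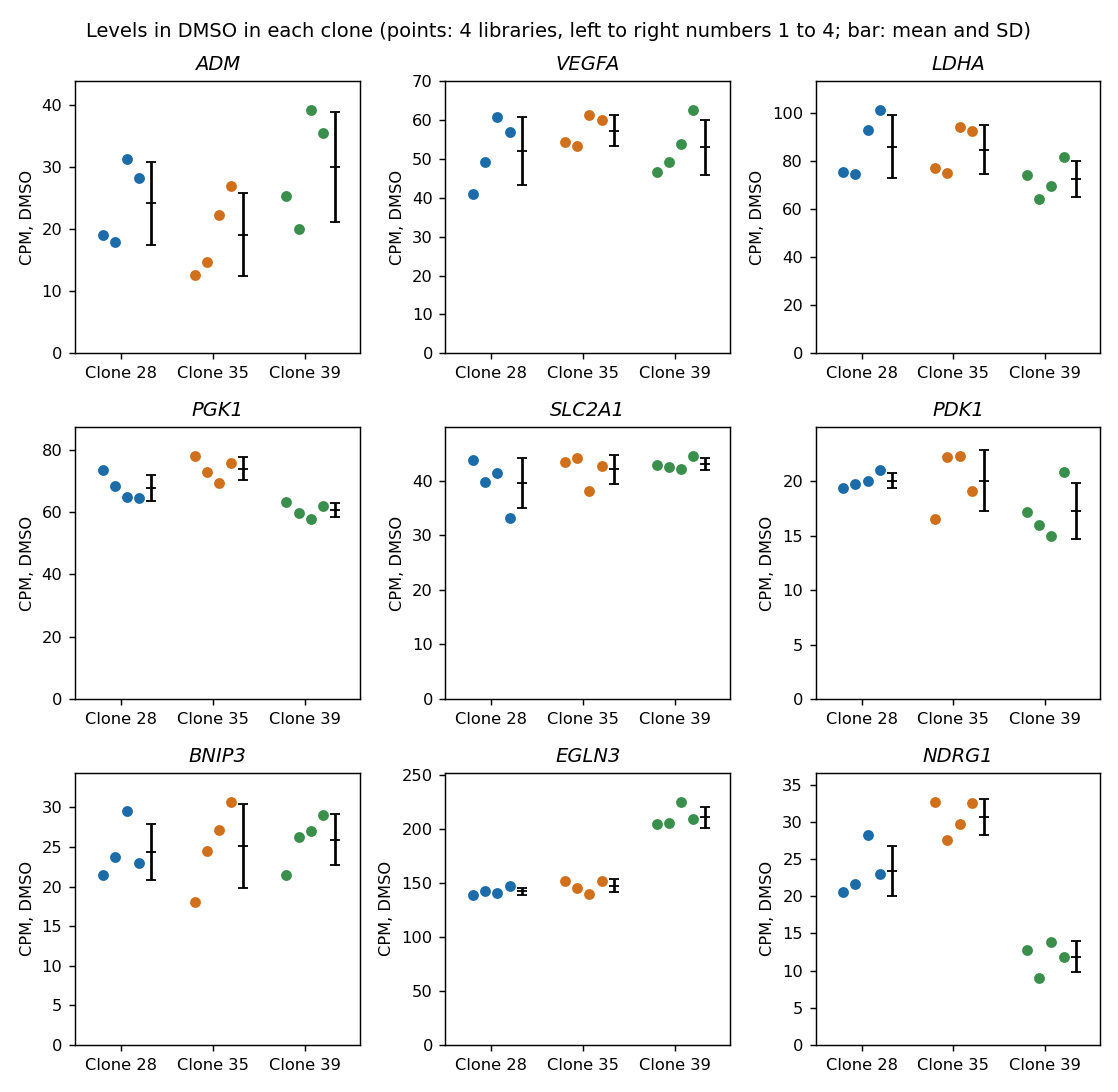
CPM (y axis, from 0) of the 9 tested genes in the 4 DMSO libraries of each clone (x axis, points in the order of the numbers 1 to 4), with the mean and SD beside them. Clone 39 stands above the other clones for EGLN3 (204 to 225 CPM) and below them for NDRG1 (9.01 to 13.9 CPM), whereas the points of ADM spread more within a clone than between clones.

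*ADM* illustrates how the collections bear on the clones. In DMSO libraries 1 to 4 it had 19.1, 18, 31.4 and 28.3 CPM in Clone 28, 12.6, 14.7, 22.3 and 27.0 CPM in Clone 35, and 25.3, 20.1, 39.2 and 35.6 CPM in Clone 39. At each number the order was Clone 35 lowest and Clone 39 highest, but the ranges over the 4 numbers overlapped, and the clones did not pass the test (adjusted p = 0.339, edgeR). With the number as a block they passed (adjusted p = 2.54e-06, edgeR), with Clone 35 below Clone 39 by a log2 difference of -0.64 (SE 0.10) and Clone 28 above Clone 35 by 0.33 (SE 0.11).

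*LDHA* had 75.3, 74.6, 92.7 and 101 CPM in Clone 28, 77.0, 74.8, 94.1 and 92.4 CPM in Clone 35, and 74.0, 64.1, 69.5 and 81.7 CPM in Clone 39. Clone 39 was lowest at each number. The test over the clones gave adjusted p = 0.201 without the block and 0.00115 with it (edgeR). *VEGFA*, *SLC2A1*, *PDK1* and *BNIP3* passed with neither fit (adjusted p from 0.403 to 0.936 without the block and from 0.274 to 0.801 with it, edgeR), and their DMSO ranges overlapped between all clones.

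Of the other pathway genes, 25 of 63 tested (39.7%) differed over the clones against 25.5% of all genes, and with the block 43 of 63 did, against 9236 of 22326 genes. The 5 with the smallest p separated Clone 39 from both other clones. *SIAH2*, whose product is a ubiquitin ligase for prolyl hydroxylases, had a mean of 103 CPM in Clone 39 (SD 5.06), 173 CPM in Clone 28 (SD 17.9) and 158 CPM in Clone 35 (SD 7.67). *HK2*, a hexokinase gene for the first step of glycolysis, had 16.3 CPM (SD 3.40) in Clone 39 and 28.1 and 35 CPM in Clones 28 and 35 (SD 2.71 and 3.12, n = 4 each). *PFKP*, a phosphofructokinase gene, and *PLOD2* were also lowest in Clone 39, by log2 differences of 0.54 and 0.98 from Clone 28.

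*CA12*, a carbonic anhydrase gene, went the other way, with 266 CPM (SD 11.3) in Clone 39 against 169 (SD 9.78) in Clone 28 and 178 (SD 16.6) in Clone 35. *EPAS1* was higher in Clone 39 as well (50.7 CPM, SD 4.21, against 36.2 and 35.3 CPM, adjusted p = 2.18e-04 over the clones, edgeR), and *VHL* was lower (34.0 CPM, SD 4.93, against 43.6 and 49.4 CPM, adjusted p = 0.00154, edgeR). *HIF1A* was highest in Clone 28 (136 CPM, SD 8.20, against 115 and 121 CPM in Clones 35 and 39, adjusted p = 0.0585, edgeR). *EGLN1*, *EGLN2*, *ARNT* and *HIF1AN* did not pass over the clones, although *EGLN2* did with the block (adjusted p = 0.0396, edgeR). Between Clones 28 and 35 alone, 3 of 63 passed, *SLC16A3*, the lactate exporter gene (-0.47), *VLDLR*, a lipoprotein receptor gene (0.86), and *HIF1A* (0.25). With the block 10 of 63 did, where calls over all genes in the pairs of clones rose as well (10914 to 18282). Markers of other cell types were also higher in Clone 39 (summed 25.9 to 34.5 CPM, against 17.4 to 26.3 CPM in the other clones), and their part in the clone differences was not tested.

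The third comparison was dTAG-13 against DMSO, which asks whether loss of TRPS1 protein for 90 minutes changed the transcription of hypoxia genes. None of the 9 passed (edgeR; 1, *EGLN3*, at an unadjusted p under 0.05, and 0 by DESeq2), against 0.551% of all genes, and the log2 differences lay between -0.08 and 0.07. The 12 DMSO and 12 dTAG-13 libraries overlapped for every gene. With so few genes called in all, a count of 0 among 9 does not set the hypoxia genes apart.

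*ADM* ranged from 12.6 to 39.2 CPM in DMSO (median 23.8) and from 13.8 to 37.2 CPM in dTAG-13 (median 23.1), and 7 of 12 pairs of libraries with the same clone and number were higher with dTAG-13. The 95% interval of its fold change ran from 0.812 to 1.25 in the fit with clone and treatment, which leaves out the collection number. With the pairs as a block the log2 difference of *ADM* was 0.015 (SE 0.057, edgeR). *VEGFA* had medians of 54.0 CPM in DMSO and 51.2 CPM in dTAG-13 and was higher in 4 of 12 pairs (log2 difference -0.08, SE 0.056, 95% interval of the fold change 0.875 to 1.02). The intervals of *LDHA*, *PGK1*, *SLC2A1*, *PDK1*, *BNIP3* and *NDRG1* all lay between 0.853 and 1.14, so changes larger than these were outside the intervals, while smaller ones could not be told from none.

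*EGLN3* had the smallest p of the 9 genes. It ranged from 139 to 225 CPM in DMSO (median 149) and from 144 to 232 CPM in dTAG-13 (median 157), and 10 of 12 pairs were higher with dTAG-13. The mean of the pairs was 0.074 on the log2 scale (SD 0.080), and the fitted difference was 0.07 (SE 0.031, adjusted p = 0.684, edgeR), or 1.01-fold to 1.1-fold as a 95% interval. With the pairs as a block the adjusted p was 0.256. The spread between the pairs was as large as the change itself.

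**Figure D4:**
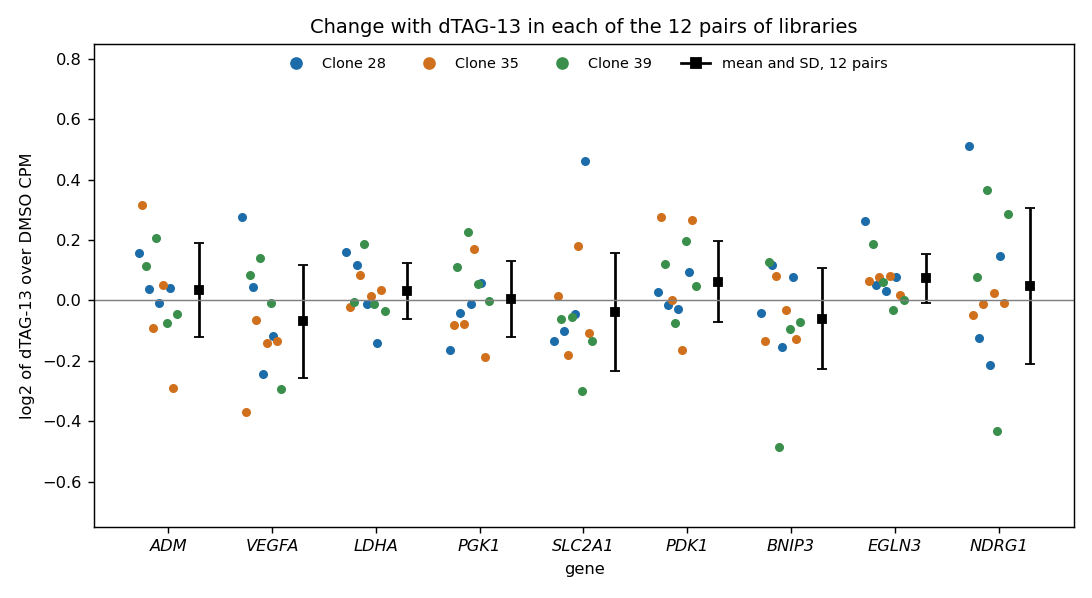
Log2 of dTAG-13 over DMSO CPM (y axis) for each tested gene (x axis) in the 12 pairs of libraries that share clone and number, coloured by clone, with the mean and SD of the 12 pairs in black. The pairs scatter around 0 for every gene, and EGLN3 has 10 of 12 pairs above 0.

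No gene passed the test of whether the change with dTAG-13 differs between clones (0 of 22326, or 0.0%, with 407 at an unadjusted p under 0.05 but none of the 9 genes among them, edgeR). Between collections it differed for 1.63% of all genes and for 0 of the 9 (edgeR; 0 also at an unadjusted p under 0.05), with adjusted p from 0.643 for *EGLN3* to 0.999 for *BNIP3*. For *ADM* the change was 0.17, 0.05, -0.01 and -0.10 at numbers 1 to 4, with SEs of 0.12, 0.13, 0.10 and 0.10. In simulated data the test between clones recovered 1% of log2 changes of 0.25 and 38.5% of those of 0.5. The test between collections recovered 0.5% and 31.5%. The simulated counts held no clone or collection effects, and each change was put in a single clone or number. These rates are therefore no measure of power in the real libraries. Even in such simulated counts, differences of these sizes could be missed, so not passing does not show that clones or collections responded alike.

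The 63 other pathway genes tested gave 0 calls with dTAG-13 (edgeR; 1 at an unadjusted p under 0.05), with a median log2 difference of -0.01 against -0.0018 over all genes. With the pairs as a block, *STC2* was called (0.11, SE 0.025, adjusted p = 0.0103, edgeR). *HIF1A* (-0.0029), *EPAS1* (-0.04), *ARNT* (0.02), *VHL* (0.04), *EGLN1* (-0.04), *EGLN2* (-0.02) and *HIF1AN* (0.05) had adjusted p of 0.965 or more. The change differed between collections for *ALDOA* and *STC2* (adjusted p = 0.0253 and 0.0532, edgeR), which at number 3 were -0.21 (SE 0.064) and 0.26 (SE 0.042). Both of these calls were lost with DESeq2 and on leaving out replicate 3 of Clone 28 or replicate 3 of Clone 35.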

How the data were processed

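Per the labels and methods, PRO-seq was performed in 6 groups of 4 libraries. The authors removed adapters (cutadapt 1.8.1), removed duplicates by UMI, dropped ribosomal reads, aligned with Bowtie2 2.4.4 (SAMtools 1.9, hg38) and used bedtools to count reads per gene. The deposited values are raw counts per gene. The annotation and the strand setting of the counting are not given in the sources used here, so overlapping genes may share reads. Of 60605 identifiers, 60463 matched a symbol in GENCODE release 44.

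Counts were fitted with edgeR 4.0.16 in R 4.3.3 (TMM, robust quasi-likelihood), after filterByExpr with a minimum count of 10, and adjusted by the Benjamini-Hochberg method over 22326 genes with a threshold of 0.1. Intervals and SEs come from these fits. Treatment was fitted with clone (24 libraries), number with clone (12 summed collections) and clone in the 12 DMSO libraries. Scripts were tested on simulated data. Alternatives were RLE factors, library totals, other filters, DESeq2 1.42.0, a threshold of 0.05, subsets of libraries, a replicate block, and leaving out each library, collection or clone. The p-values for treatment and for clones measure the spread between dishes of the same clones. Those for the numbers measure how far the 3 clones disagreed, because each clone had 1 summed collection per number. If a number marks a shared time, the clones are not independent repeats of it.

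The pairing of DMSO and dTAG-13 libraries comes from the labels, since same-numbered dishes were collected together, and their deviations correlated (0.0926 to 0.318, 12 pairs). Across clones, same-numbered libraries of the same treatment correlated about as much (0.0936 to 0.352, 24 pairs), so the correlation is not particular to the pairs. Those in DMSO correlated at 0.135 or more, so the number was also used as a block between clones. Replicate libraries differed by more than sampling noise (lowest chi-square over its degrees of freedom 1.64), so each counted as 1 sample.

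The members and lists were chosen with earlier results of these data known. Named genes are the 10 genes, *TRPS1*, *HIF1A*, *EPAS1*, *ARNT*, *VHL*, *EGLN1*, *EGLN2*, *HIF1AN* and, per comparison, up to 5 called genes of the 3 pathway lists (68 genes, 63 tested) with the smallest p. *ARNT2*, *CUL2* and the overlapping *SPTSSA*, *ATP7A* and *ARHGEF39* were named after their values were seen.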

Additional observations from a re-analysis of the deposited data

Results flagged for a closer look

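In 54 groups of 4 libraries (9 genes in 6 groups), 3 had 1 library so far from the others that its gap to the nearest exceeded 0.829 of the group's range, a limit that chance alone passes in about 1 of 20 groups. *BNIP3* was at 16.5 CPM in Clone 35 dTAG-13 replicate 1, against 25.9 to 28.1 CPM in the other replicates. *PDK1* was at 22.4 CPM in Clone 28 dTAG-13 replicate 4, against 19.5 to 19.8 CPM. *SLC2A1* was at 34.3 CPM in Clone 39 dTAG-13 replicate 3, against 40.5 to 41.1 CPM. The library with low *BNIP3* belongs to the earlier collections, where the gene was lower in general, and without that collection *BNIP3* was still higher in collections 3 and 4 (log2 difference 0.23).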

How the results depend on the processing

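Of 152 counts of calls recomputed under other settings, 113 stayed within 1.5 times the reported count and 39 did not. The increases of *ADM*, *BNIP3*, *LDHA* and *VEGFA* in collections 3 and 4 kept their direction under every setting and their call under all but 1 (*VEGFA* in dTAG-13 libraries alone), and no setting called a hypoxia gene for dTAG-13. The depth limits *CA9* and differences as small as those of *EGLN3* with dTAG-13.

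Genes called for dTAG-13 (123) came to 64 at a threshold of 0.05, 197 without a filter on low counts, and 1, 41 and 47 without Clones 28, 35 and 39. Leaving out single libraries gave 66 to 151, and 4 of Clone 28 moved the count by over 1.5 times (DMSO replicates 3 and 4 to 80 and 66, dTAG-13 replicates 1 and 2 to 76 and 69). The log2 change with dTAG-13 turned to -0.0043 for *ADM* without Clone 28, to -0.039 for *PGK1* and to 0.011 for *SLC2A1* without Clone 39, and ran from -0.011 to 0.017 for *PGK1* and from -0.032 to 0.078 for *ADM* without single libraries.

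Genes called over the 4 numbers (8232) came to 3350 with DESeq2, 4332 in dTAG-13 libraries alone and 5163 without Clone 28, and hypoxia genes (5) to 3 in dTAG-13 libraries alone (without *VEGFA*, adjusted p = 0.238, and *NDRG1*) and 3 without Clone 35 (without *BNIP3*, adjusted p = 0.111, and *NDRG1*, edgeR). *NDRG1* was also lost without replicate 2 of Clone 28 (adjusted p = 0.190, edgeR). Genes called between the later and earlier pair (8980) came to 4776 with DESeq2 and 5112 in dTAG-13 libraries alone. There *EGLN3* turned to 0.025 with library totals, 0.016 without the filter and 0.032 in DMSO libraries alone, and ran from -0.035 to 0.0022 without single collections, and *SLC2A1* to 0.0058 with library totals and 0.022 in dTAG-13 libraries alone. Library totals also called *NDRG1* (0.15, adjusted p = 0.0521, edgeR), and leaving out replicate 3 of Clone 35 called *PGK1* (-0.08, adjusted p = 0.0944, edgeR).

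Calls within the pairs (collection 2 against 1 and 4 against 3, 1 call of a hypoxia gene) came to 0 at a threshold of 0.05, with DESeq2, in DMSO or dTAG-13 libraries alone and without Clone 28 or 35, and to 2 with RLE factors, library totals, at least 10 counts in every library or libraries not summed. Leaving out single collections gave 0 (replicates 1 and 2 of Clones 28 and 35) to 2 (replicate 4 of Clones 28 and 35). Over all genes (1688) they came to 1081 at 0.05, 392 with DESeq2, 779 and 717 in DMSO and dTAG-13 libraries alone, 655, 966 and 1095 without Clones 28, 35 and 39, and 933 to 1745 without single collections (933, 1067 and 1086 without replicates 1 and 2 of Clone 28 and replicate 2 of Clone 39).

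With the replicate block, 521 genes were called for dTAG-13, 1 for its difference between clones (6 without the filter), 9236 over the clones (5687 without the block) and 18282 in pairs of clones (10914). Of the hypoxia genes, 5 were called over the clones (3 without the block) and 12 times in pairs of clones (5, and 8 without the filter). The block changed no call of a hypoxia gene for dTAG-13. Genes whose change with dTAG-13 differed between numbers (365) came to 216 at 0.05, 108 with DESeq2 and 229 to 393 without single collections (229 and 231 without replicates 3 and 4 of Clone 35). Over the clones, *LDHA* was also called without the filter (adjusted p = 0.0230, edgeR) and in dTAG-13 libraries (adjusted p = 0.0390, edgeR). Between Clones 28 and 35, the share of calls that were higher in Clone 28 was 61.1% with TMM and 49.6% with library totals. The cause was not tested for any of these.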

Other observations

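The clone differences of *EGLN3* and *NDRG1* were set beside their neighbours within 1 Mb, a view chosen after the values were seen. Of 20 tested neighbours of *EGLN3*, 1 passed the test over the clones (*CFL2*, which encodes a muscle cofilin, adjusted p = 0.0398, edgeR). Their differences of Clone 28 from Clone 39 ranged from -0.34 to 0.35 on the log2 scale, against -0.56 for *EGLN3*. Those of Clone 35 from Clone 39 ranged from -0.51 to 0.49, against -0.52 for *EGLN3*, and the lowest, *CFL2*, passed (adjusted p = 0.0189, edgeR). Of 7 tested neighbours of *NDRG1*, 2 passed, of which *DNAAF11*, a gene for the assembly of ciliary dynein, had adjusted p = 0.0252. Their differences of Clone 28 from Clone 39 ranged from -0.17 to 1.00, against 0.98 for *NDRG1*, and those of Clone 35 from Clone 39 from -0.21 to 0.45, against 1.36.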
